A study of Homo sapiens with 9 samples.

Results

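HUWE1 is a very large E3 ubiquitin ligase of the HECT class, in which ubiquitin is passed from an E2 enzyme to a catalytic cysteine of the ligase and from there to a substrate. Exchange of that cysteine for serine leaves a protein that cannot take up ubiquitin in the usual way, and this was done at the endogenous gene in HCT116, a human colon carcinoma cell line. The 3 libraries of the mutated cells (HUWE1-CS) were compared with the 3 libraries of unedited parental cells (HUWE1-P), 6 of the 9 libraries of the series, all of them of untreated cells. The 3 libraries of HUWE1-WT cells, in which cysteine was put back with the same template, are shown beside them. Members of the comparison were chosen by the genotype in the sample labels.

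HUWE1-CS and HUWE1-P cells differed in more than the codon. The repair template carried a blasticidin resistance cassette behind a self-cleaving peptide, and edited cells were drug-selected and grown from single cells, so that HUWE1-CS cells differed from HUWE1-P cells in the codon, the cassette, the selection and the cloning. HUWE1-WT cells share the last 3 with HUWE1-CS cells, and the number of clones behind a line is not given in the sources used here. In the contrast with HUWE1-P cells alone these differences cannot be told apart, so that the value in HUWE1-WT cells is given with the main results. A figure legend of the study calls the 3 libraries of a line biological replicates, and its methods say that repeats came from different samples. Separate clones are not stated, so that the p-values measure the spread between such samples of a line. The contrasts share the HUWE1-P or the HUWE1-CS libraries and are not independent of each other.

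Between 1610984 and 2060349 reads were counted per library on 11350 genes. Levels are given as counts per 1000000 counted reads (CPM) after TMM normalization, as every library or as mean ± SD of 3 libraries, and 3 counts correspond to between 1.46 and 1.86 CPM, a floor that covers counting error only. Differences are log2 fold changes of HUWE1-CS over HUWE1-P cells with their standard error (SE) from edgeR's quasi-likelihood fit to all 9 libraries. A gene was called at a false discovery rate of at most 0.01. Each library was also left out in turn, and those whose omission ended a call or moved a count by over 1.5 times are named P1 to P3, WT1 to WT3 and CS1 to CS3 by line and replicate, with the highest adjusted p or the range of the count over the omissions. HUWE1 itself, expressed from the edited locus (chromosome X, 53559057 to 53713697, minus strand, GRCh37, as all positions that follow unless another build is named), was at 561, 545 and 522 CPM in HUWE1-P, 498, 453 and 455 CPM in HUWE1-WT and 345, 323 and 339 CPM in HUWE1-CS libraries. The 3 lines did not overlap, and the HUWE1-CS libraries were the lowest (log2 fold change -0.69 ± 0.065 SE, adjusted p = 1.06e-15, edgeR). The codon itself cannot be read from counts per gene.

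Of the epithelial markers, 9 of 12 were in the table, and their summed level was 4190 to 4309 CPM in HUWE1-P libraries, 4205 to 4613 CPM in HUWE1-WT libraries and 3747 to 4133 CPM in HUWE1-CS libraries. Of 8 fibroblast, 8 leukocyte and 6 endothelial markers, 1 each was in the table, COL1A1 (at most 25.6 CPM in any library, difference -0.96), CD68 (at most 14.5 CPM, -0.39, not called) and ESAM (at most 10.9 CPM, -1.42). The genes that define those cells most closely, among them PTPRC, PECAM1, DCN and LUM, were not among the 11350 genes. In bulk RNA fewer cells of a type and less RNA per cell cannot be told apart. COL1A1 (without CS3, adjusted p up to 0.0166) and ESAM (without P2, P3, CS1, CS2 or CS3, adjusted p up to 0.0389) lost their calls in edgeR with 1 library left out.

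In all, 1934 of 11350 genes were called (17.0%), of which 960 rose (8.46%) and 974 fell (8.58%) from HUWE1-P to HUWE1-CS cells. The median log2 fold change of all genes was -0.007. Genes were grouped in 48 lists typed from general knowledge, and the shares above are the background against which each list is read. Groups with many more higher than lower members were the cytosolic ribosomal proteins and the epithelial junction genes. Groups with many more lower members were the actin cytoskeleton, focal adhesion, matrix, integrin, YAP-TEAD and keratin genes and the cytosolic chaperones. Glycolysis enzymes and ERK feedback genes were called often in both directions, and Mediator subunits and zinc finger genes seldom. Genes of high level were called more often. Of 214 genes at 500 CPM or more in HUWE1-P cells, without ribosomal proteins, 20.6% were called higher and 29.4% lower. The 18 glycolysis enzymes summed to 15820 to 16230 CPM in HUWE1-P libraries, and the 290 zinc finger genes to 6889 to 7126 CPM. What part level has in these shares was not tested.

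Cytosolic ribosomal proteins form the small and large subunits of the ribosome, and their messages begin with a 5' terminal oligopyrimidine (TOP) tract, a C at the cap followed by other pyrimidines, through which their translation is known to be set by mTORC1 and the RNA-binding protein LARP1. Windows around annotated starts are printed here for chosen genes that rose and for the paralogues that were not called. They are not a sample of all members. Each holds the 10 bases before and the 20 bases from the first transcribed base (RefSeq, GRCh38.p14), 5' to 3' on the transcribed strand. Capitals mark a run of at least 5 pyrimidines that begins with C at the first transcribed base, and windows without capitals have no such run there. For a gene with several windows, the window with the longest run of this kind was taken.
RPS18 (chr6:33272065-33272094, plus strand): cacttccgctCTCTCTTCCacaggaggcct
RPL13A (chr19:49487598-49487627, plus strand): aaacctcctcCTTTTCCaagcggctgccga
RPL12 (chr9:127451387-127451416, minus strand): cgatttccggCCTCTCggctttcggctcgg
RPS19 (chr19:41860245-41860274, plus strand): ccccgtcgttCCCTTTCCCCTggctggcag
RPS27L (chr15:63157458-63157487, minus strand): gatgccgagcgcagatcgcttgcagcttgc
RPL22L1 (chr3:170870176-170870205, minus strand): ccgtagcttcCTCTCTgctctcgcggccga
RPL26L1 (chr5:172958719-172958748, plus strand): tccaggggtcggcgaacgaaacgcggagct
RPL7L1 (chr6:42879606-42879635, plus strand): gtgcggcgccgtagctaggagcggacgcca
EEF1A1 (chr6:73521013-73521042, minus strand): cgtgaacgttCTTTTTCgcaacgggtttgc
EEF1G (chr11:62573872-62573901, minus strand): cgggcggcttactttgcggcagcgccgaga
EEF1B2 (chr2:206159885-206159914, plus strand): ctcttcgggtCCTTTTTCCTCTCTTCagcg
TPT1 (chr13:45341164-45341193, minus strand): ctgagtcggcCTTTTCCgcccgctcccccc
EIF4B (chr12:53006446-53006475, plus strand): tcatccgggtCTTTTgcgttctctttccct

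Of the 83 ribosomal protein genes tested, 80 were called higher and 0 lower, against 8.46% and 8.58% of all genes. The median log2 fold change was 0.43 for HUWE1-CS over HUWE1-P cells, 0.41 over HUWE1-WT cells and 0.010 in HUWE1-WT against HUWE1-P cells. The increases were small and even, and apart from RPS27L they lay between 0.24 (RPS27A) and 0.69 (RPS19). RPS18 was at 1120, 1153 and 1084 CPM in HUWE1-P, 1056, 1263 and 1100 CPM in HUWE1-WT and 1728, 1785 and 1740 CPM in HUWE1-CS libraries. RPL13A was at 879.5, 909.8 and 857 CPM in HUWE1-P, 867, 903 and 922 CPM in HUWE1-WT and 1252, 1428 and 1417 CPM in HUWE1-CS libraries. For both genes all HUWE1-CS libraries lay above all others, and the differences were 0.65 and 0.63. Among 214 other genes at 500 CPM or more in HUWE1-P cells, a group chosen after the values were seen, 20.6% were called higher and 29.4% lower, with a median of -0.048. RPS27A (without P2, P3 or CS3, adjusted p up to 0.0413), RPS23 (without P1, CS2 or CS3, adjusted p up to 0.0146) and RPL32 (without P3, adjusted p up to 0.0133) lost their calls in edgeR with 1 library left out.

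The member with the largest difference was RPS27L (chromosome 15, 63418071 to 63450220, minus strand), a paralogue of RPS27 that is known as a p53 target. It was at 51.5, 50.5 and 64.1 CPM in HUWE1-P, 54.5, 52.9 and 68.6 CPM in HUWE1-WT and 137, 151 and 149 CPM in HUWE1-CS libraries. All HUWE1-CS libraries were above the others (log2 fold change 1.38 ± 0.11 SE, adjusted p = 4.82e-20, edgeR). The paralogues RPL22L1 (0.16), RPL26L1 (0.035) and RPL7L1 (-0.033) were the members not called. A start tract as defined above was found in 48 of the 67 ribosomal protein genes with a start window (71.6%). The share was 7.81% of the 9041 tested genes with a window. In both groups each gene counted with its window of the longest run, which favours finding a tract. Of all 35116 windows, taken without that choice, 4.07% held a tract, so that this share is not of the same kind. Members with the tract had a median of 0.48 and the 19 without it 0.37. Called higher were 97.9% of the former and 89.5% of the latter, so that most members rose with or without a tract. RPL22L1 carries the tract and was not called, and RPS27L was called without it, so that the letters at the start did not separate the members one by one.

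Other factors of translation moved in both directions. Of 53 initiation and elongation factors, 12 rose (22.6%) and 8 fell (15.1%), beside 8.46% and 8.58% of all genes. EEF1A1, which delivers aminoacyl-tRNA to the ribosome, rose by 0.51, and its exchange factors EEF1B2 and EEF1G rose by 0.53 and 0.47. The start window of EEF1G printed with those of the ribosomal proteins holds no tract as defined there. EIF4B, a helper of the initiation helicase, rose by 0.41, and EIF6, which keeps the subunits apart, by 0.47. The scaffold EIF4G1 fell by 0.37 and the EIF3 subunit EIF3B by 0.37. Of 17 messages other than ribosomal proteins that are known to carry TOP tracts, a list added after the values were seen, 10 were called higher, among them TPT1 (0.44) and RACK1 (0.31). NPM1 (-0.25) and EEF1D (-0.27) of that list were called lower. EEF1D (without P2 or CS1, adjusted p up to 0.0189) lost its call in edgeR with 1 library left out. Such omissions left 5 to 8 translation initiation and elongation factors called lower (without P1, P2 or CS1) and 1 to 2 other 5' TOP messages called lower (without P2 or CS1).

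Of 20 cytosolic aminoacyl-tRNA synthetases, QARS (0.33) and LARS (0.34) rose and FARSB (-0.67), VARS (-0.51) and YARS (-0.38) fell. Of 78 mitochondrial ribosomal proteins, 8 were higher and 1 lower, near the background for higher calls, and the median was 0.13. MRPS33 (0.66), MRPL24 (0.53) and MRPS16 (0.43) had the largest increases, and MRPS25 fell by 0.55. Of 39 genes of mitochondrial import and folding, 3 rose, among them the outer membrane translocase subunit TOMM7 (0.47) and the chaperone TRAP1 (0.30), and 1 fell, TIMM21 by 0.69. With a trend with transcript length taken out, 68 ribosomal proteins remained called higher by number, with a median of 0.28, and 3 in place of 8 mitochondrial ribosomal proteins. MRPS33 (without CS1, adjusted p up to 0.0229), MRPS25 (without P1, CS1 or CS3, adjusted p up to 0.0219) and TOMM7 (without CS2, adjusted p up to 0.0132) lost their calls in edgeR with 1 library left out. Such omissions left 4 to 9 mitochondrial ribosomal proteins called higher (without P1, P3 or CS2), 0 to 1 mitochondrial ribosomal proteins called lower (without P1, CS1 or CS3) and 2 to 5 mitochondrial import and folding genes called higher (without CS3). Against HUWE1-WT cells, LARS (0.24, adjusted p = 0.0132), YARS (-0.24, adjusted p = 0.0109), MRPS33 (0.26, adjusted p = 0.226) and MRPS25 (-0.27, adjusted p = 0.195) were not called in edgeR.

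Cells are held to the matrix by integrins, which are coupled through focal adhesion proteins such as vinculin to bundles of actin and myosin, and the tension in this system is known to act on the coactivators YAP1 and TAZ and their DNA-binding partners TEAD1 to TEAD4. Of 34 laminin, collagen and other matrix genes, 13 were called lower (38.2%) and 2 higher, with a median of -0.27, -0.20 over HUWE1-WT cells, and 0.012 in HUWE1-WT against HUWE1-P cells. VCAN (chromosome 5, 82767437 to 82878122, plus strand), the proteoglycan versican, was at 112, 136 and 108 CPM in HUWE1-P, 142, 129.8 and 112 CPM in HUWE1-WT and 22, 18.1 and 15.7 CPM in HUWE1-CS libraries. The HUWE1-CS libraries were far below both other lines (log2 fold change -2.67 ± 0.14 SE, adjusted p = 2.2e-30, edgeR). Omission of 1 library left 1 to 2 laminin, collagen and matrix genes called higher (without P2, P3 or CS1).

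FN1, fibronectin, was at 11.8, 7.86 and 12.5 CPM in HUWE1-P, 13.9, 14.2 and 12.8 CPM in HUWE1-WT and 2.37, 3.4 and 1.74 CPM in HUWE1-CS libraries. These are few counts per library, yet the HUWE1-CS libraries did not overlap with the others (log2 fold change -2.07 ± 0.40 SE, adjusted p = 2.44e-05, edgeR). LOXL2, a lysyl oxidase that crosslinks collagen, was at 27.9, 30.3 and 31.3 CPM in HUWE1-P, 39.4, 31.6 and 30.8 CPM in HUWE1-WT and 9.49, 13.6 and 8.13 CPM in HUWE1-CS libraries, again with the HUWE1-CS libraries apart from both other lines (log2 fold change -1.51 ± 0.22 SE, adjusted p = 2.41e-08, edgeR). The membrane-bound protease MMP14 fell by 2.43 from a mean of 6.60 ± 1.58 CPM, the laminin chain LAMB1 by 0.75 and the collagen chain COL12A1 by 0.66. In the opposite direction COL18A1, a collagen of basement membranes, was at 157, 145 and 159 CPM in HUWE1-P, 174, 138 and 148 CPM in HUWE1-WT and 307, 321 and 290.3 CPM in HUWE1-CS libraries. Here too the HUWE1-CS libraries lay apart from the others (log2 fold change 0.99 ± 0.077 SE, adjusted p = 4.47e-20, edgeR). COL18A1 overlaps SLC19A1 on the other strand, which fell by 0.39. The membrane-bound protease MMP15 also rose (0.37). SLC19A1 (without P3, CS1 or CS2, adjusted p up to 0.026) and MMP15 (without P2, P3 or CS1, adjusted p up to 0.0696) lost their calls in edgeR with 1 library left out.

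Of 11 integrin genes 4 fell (36.4%) and 0 rose. ITGA2, the alpha chain of a collagen receptor, was at 72.0, 57.8 and 57.3 CPM in HUWE1-P, 69.5, 52.4 and 54.7 CPM in HUWE1-WT and 26.7, 22.1 and 25 CPM in HUWE1-CS libraries. The HUWE1-CS libraries were below the 6 others (log2 fold change -1.33 ± 0.15 SE, adjusted p = 1.25e-11, edgeR). The fibronectin receptor chain ITGA5 fell by 0.92, the laminin receptor chain ITGA6 by 0.48 and ITGB5 by 0.51. The other 7 integrin genes were not called, and the median of the list was -0.074. Of 25 focal adhesion and caveola genes 8 fell (32.0%) and 2 rose (8.0%). Vinculin (VCL, -0.68), kindlin-2 (FERMT2, -0.95), paxillin (PXN, -0.54) and tensin-1 (TNS1, -1.23) fell, as did the caveolins CAV1 (-0.57) and CAV2 (-0.65), while the kinase gene PTK2 (0.29) and its substrate BCAR1 (0.39) rose. The median of the list was 0.069, on the other side of 0 from its calls. ITGB5 (without P1 or CS3, adjusted p up to 0.024), PTK2 (without P1, P2 or CS3, adjusted p up to 0.0261) and BCAR1 (without P1, P3, CS1 or CS2, adjusted p up to 0.0781) lost their calls in edgeR with 1 library left out. Such omissions left 0 to 2 focal adhesion genes called higher (without P1, P2, P3, CS1, CS2 or CS3). Against HUWE1-WT cells, PTK2 (0.17, adjusted p = 0.0968) and BCAR1 (0.19, adjusted p = 0.226) were not called in edgeR.

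Of 57 actin cytoskeleton genes 23 fell (40.4%) and 4 rose, with a median of -0.26, -0.26 over HUWE1-WT cells, and 0.0030 in HUWE1-WT against HUWE1-P cells. PALLD (chromosome 4, 169418203 to 169849608, plus strand), palladin of the actin bundles, was at 323, 321 and 318 CPM in HUWE1-P, 336, 315 and 293 CPM in HUWE1-WT and 90.8, 82.2 and 83.6 CPM in HUWE1-CS libraries. PDLIM5, a scaffold at the Z-disc and stress fibres, was at 125, 139 and 143 CPM in HUWE1-P, 128, 108 and 138 CPM in HUWE1-WT and 37.4, 42.5 and 53.4 CPM in HUWE1-CS libraries. In both genes the HUWE1-CS libraries lay far below the rest (log2 fold change -1.91 ± 0.083 SE, adjusted p = 3.74e-37, edgeR for PALLD). The kinase ROCK1, which acts on myosin, fell by 0.97, the non-muscle myosin heavy chains MYH9 and MYH10 by 0.65 and 0.69, and the crosslinkers FLNA and ACTN4 by 0.66 and 0.44. ACTB, one of the most abundant messages, was at 2475, 2333 and 2388 CPM in HUWE1-P, 2390, 2471 and 2457 CPM in HUWE1-WT and 1539, 1690 and 1625 CPM in HUWE1-CS libraries. Its difference of -0.57 exceeded the spread of the libraries, and the other cytoplasmic actin, ACTG1, fell by 0.37. ACTB and ACTG1 are close paralogues, and PALLD overlaps DDX60L on the other strand, which was also lower (-1.07).

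The 4 actin genes that rose were GSN (0.75), which severs filaments, the depolymerizing factor CFL1 (0.39) and the myosin light chains MYL6 (0.43) and MYL12B (0.25). Of 25 YAP-TEAD factors and targets 11 fell (44%) and 2 rose, with a median of -0.36, -0.26 over HUWE1-WT cells, and -0.019 in HUWE1-WT against HUWE1-P cells. Absent from the genes counted were 8 of 33 typed symbols, the targets CCN2 and ANKRD1 among them. Among the factors, TEAD1 (-0.45) and TEAD2 (-0.97) fell, YAP1 rose (0.29, adjusted p = 0.00601, edgeR), and the gene of TAZ, WWTR1, was not called (0.12). Among the targets, CCN1 (chromosome 1, 86046444 to 86050272, plus strand), a secreted matrix-associated protein, was at 23.6, 33.1 and 23.6 CPM in HUWE1-P, 23.8, 29.99 and 26.8 CPM in HUWE1-WT and 7.12, 6.80 and 7.55 CPM in HUWE1-CS libraries. The receptor kinase AXL was at 122, 121 and 116 CPM in HUWE1-P, 108, 122 and 114 CPM in HUWE1-WT and 58.2, 53.9 and 60.4 CPM in HUWE1-CS libraries. Tissue factor, F3, was at 39.1, 42.7 and 49.6 CPM in HUWE1-P, 37.1, 36.5 and 41.3 CPM in HUWE1-WT and 19.6, 18.7 and 13.9 CPM in HUWE1-CS libraries. The HUWE1-CS libraries of these 3 targets were below the 6 others, with differences of -1.89, -1.06 and -1.34. The YAP inhibitor AMOTL2, itself a target, fell by 0.76, and ASAP1, a regulator of Arf proteins, fell as well (-1.04). Beside YAP1, GADD45A, also known as a p53 target, rose by 0.59. MYL12B (without P2, P3 or CS1, adjusted p up to 0.0268) and YAP1 (without P1, P2, CS1 or CS3, adjusted p up to 0.0467) lost their calls in edgeR with 1 library left out. Such omissions left 1 to 2 YAP-TEAD factors and targets called higher (without P1, P2, CS1 or CS3). Against HUWE1-WT cells, TEAD1 (-0.29, adjusted p = 0.0126) and GADD45A (0.31, adjusted p = 0.0738) were not called in edgeR.

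**Figure D1:**
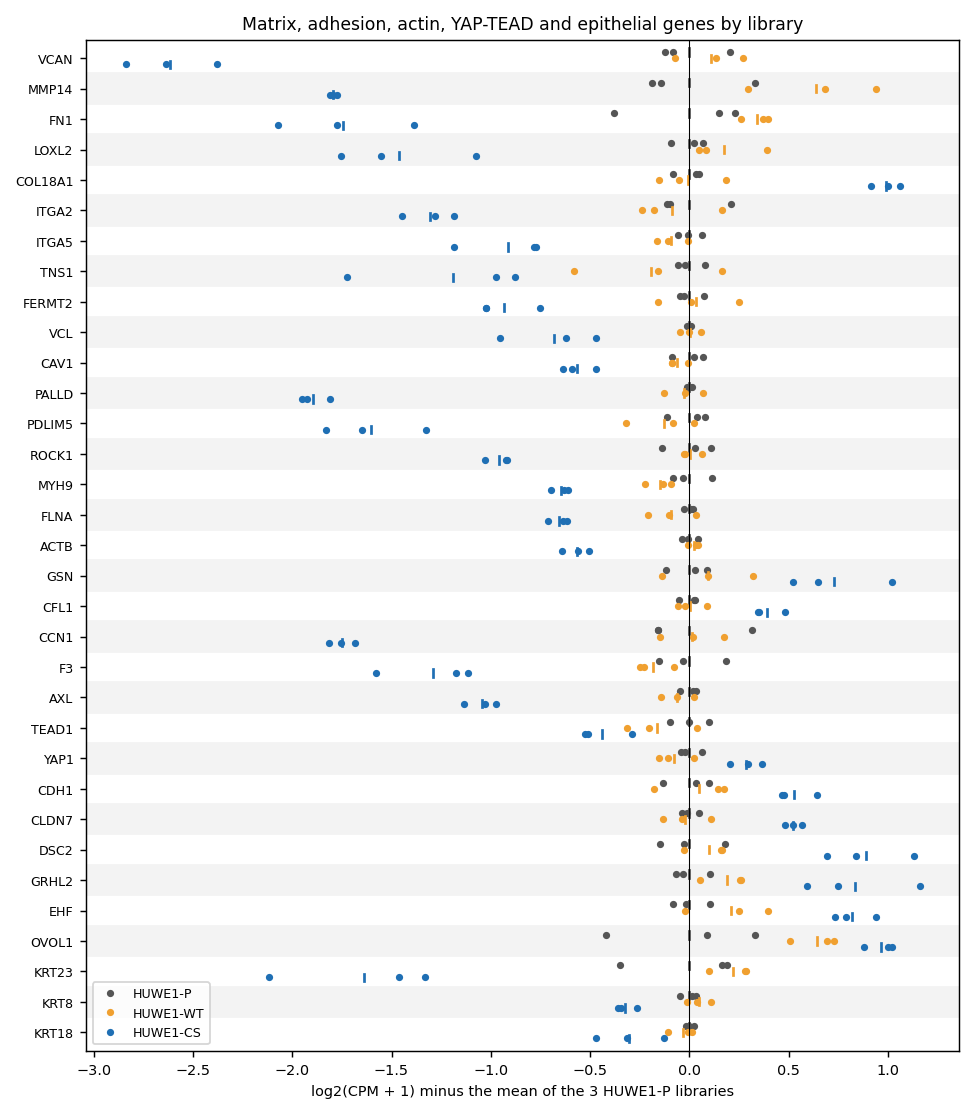
Log2(CPM + 1) of each library minus the mean of the 3 HUWE1-P libraries, for matrix, integrin, focal adhesion, actin, YAP-TEAD, junction and keratin genes from top to bottom; points are libraries and short vertical bars are means of 3. HUWE1-CS libraries (blue) lie to the left of 0 down to TEAD1, except for COL18A1, GSN and CFL1, to the right from YAP1 to OVOL1 and to the left for the keratins, and HUWE1-WT libraries (orange) lie nearer to HUWE1-P libraries (grey), with OVOL1 between the other lines.

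Epithelial cells are joined by cadherins, desmosomes and tight junctions, and the factors GRHL2, ELF3, EHF, OVOL1, ESRP1 and ESRP2 are known to keep this programme. Of 44 genes of this kind 14 were called higher (31.8%) and 3 lower, with a median of 0.14, 0.15 over HUWE1-WT cells, and 0.0020 in HUWE1-WT against HUWE1-P cells. E-cadherin, CDH1, was at 59.6, 70.2 and 67.0 CPM in HUWE1-P, 72.4, 57.8 and 73.8 CPM in HUWE1-WT and 91.4, 90.7 and 103 CPM in HUWE1-CS libraries. All HUWE1-CS libraries were above the others (log2 fold change 0.53 ± 0.11 SE, adjusted p = 0.000113, edgeR). P-cadherin (CDH3) rose by 0.44, claudin-7 (CLDN7) by 0.53, and the desmosomal cadherins DSC2 and DSC3 by 0.89 and 0.97. NECTIN4, an adhesion receptor, was at 1.86, 1.68 and 1.45 CPM in HUWE1-P, 1.74, 1.09 and 1.16 CPM in HUWE1-WT and 10.1, 7.37 and 6.97 CPM in HUWE1-CS libraries, so that its difference of 2.25 rests on few counts. Omission of 1 library left 1 to 3 epithelial junction genes called lower (without P3).

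Among the factors, GRHL2 was at 23.0, 23.6 and 26.0 CPM in HUWE1-P, 29.0, 25.1 and 29.1 CPM in HUWE1-WT and 55.2, 36.9 and 41.2 CPM in HUWE1-CS libraries. EHF was at 44.7, 42.7 and 48.7 CPM in HUWE1-P, 44.6, 54.0 and 59.9 CPM in HUWE1-WT and 78.9, 76.0 and 87.7 CPM in HUWE1-CS libraries. The HUWE1-CS libraries of both lay above the rest, with differences of 0.86 and 0.83. OVOL1 differed from HUWE1-P cells by 1.03 and from HUWE1-WT cells by 0.34 (adjusted p = 0.322, edgeR), and its HUWE1-WT libraries lay between the other lines. The splicing regulators went apart, with ESRP1 higher (0.32) and ESRP2 lower (-0.62). The tight junction scaffold TJP1 fell (-0.39). OVOL1 (without P3, adjusted p up to 0.0378), ELF3 (without P1 or P3, adjusted p up to 0.0256), ESRP1 (without P1, P2 or CS3, adjusted p up to 0.029) and TJP1 (without P3 or CS2, adjusted p up to 0.0895) lost their calls in edgeR with 1 library left out. Against HUWE1-WT cells, TJP1 (-0.23, adjusted p = 0.0886) was not called in edgeR.

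Keratins form the intermediate filaments of epithelia. Of 9 keratin genes 4 fell (44.4%) and 0 rose, with a median of -0.30. KRT23 was at 14.9, 15.2 and 10.1 CPM in HUWE1-P, 16.2, 14.2 and 16.3 CPM in HUWE1-WT and 4.15, 2.27 and 4.64 CPM in HUWE1-CS libraries. KRT8, the most abundant, was at 2104, 2074 and 1986 CPM in HUWE1-P, 2038, 2217 and 2111 CPM in HUWE1-WT and 1603, 1712 and 1615 CPM in HUWE1-CS libraries. The HUWE1-CS libraries were below the others in both, with differences of -1.82 and -0.32. KRT18, the partner of KRT8, fell by 0.30, and KRT19 was not called (0.15). The spans of KRT8 and KRT18 overlap on opposite strands, and whether strand was used in counting is not given in the sources used here. Of the 9 epithelial markers tested, 3 rose, EPCAM (0.28) and CDH1 among them, KRT8 and KRT18 fell, and KRT19, CDX2, CLDN3 and CLDN4 were not called. KRT18 (without CS1, adjusted p up to 0.0117) lost its call in edgeR with 1 library left out. Such omissions left 2 to 4 keratin genes called lower (without CS1) and 1 to 2 colon carcinoma and epithelial markers called lower (without CS1).

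In the ERK pathway, activated receptors signal to ERK, which induces its own inhibitors, among them dual-specificity phosphatases (DUSP), Sprouty proteins and ERRFI1, an inhibitor of the EGF receptor. Of 18 genes of this group 6 rose (33.3%) and 5 fell (27.8%), so that the members moved against each other. ERRFI1 (chromosome 1, 8064464 to 8086369, minus strand) was at 595, 586 and 622 CPM in HUWE1-P, 614, 586 and 560.5 CPM in HUWE1-WT and 164, 158 and 158 CPM in HUWE1-CS libraries. DUSP4 was at 64.5, 67.9 and 76.1 CPM in HUWE1-P, 65.5, 86.7 and 68.0 CPM in HUWE1-WT and 189, 153 and 139.9 CPM in HUWE1-CS libraries. The HUWE1-CS libraries were lowest for ERRFI1 (-1.91) and highest for DUSP4 (1.20). DUSP6 rose by 0.77, while DUSP5 fell by 0.79, the receptor EPHA2 by 0.50 and cyclin D1 (CCND1) by 0.43. Of 7 EGFR family receptors and ligands, the ligands TGFA (0.56) and AREG (0.40) and the receptor ERBB3 (0.50) rose and the ligand EREG fell (-0.30). Absent from the genes counted were 8 of 15 typed symbols of this family, EGF and BTC among them. AREG (without P3, adjusted p up to 0.0169), ERBB3 (without P1, P3, CS1 or CS3, adjusted p up to 0.0484) and EREG (without CS2, adjusted p up to 0.0155) lost their calls in edgeR with 1 library left out. Such omissions left 3 to 6 ERK feedback genes called higher (without P3), 1 to 3 EGFR family receptors and ligands called higher (without P3) and 0 to 1 EGFR family receptors and ligands called lower (without CS2). Against HUWE1-WT cells, ERBB3 (0.12, adjusted p = 0.582) was not called in edgeR.

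Of 22 AP-1 and immediate early genes 4 rose (18.2%), among them the nuclear receptor NR4A2 (1.65), JUNB (0.59), IER5 (0.68) and the antiproliferative BTG2 (0.85), and KLF6 (-0.60) and KLF2 (-0.43) fell (9.09%). NR4A2 was at 8.69, 9.54 and 6.26 CPM in HUWE1-P, 14.5, 8.72 and 6.98 CPM in HUWE1-WT and 20.8, 33.5 and 22.1 CPM in HUWE1-CS libraries, and its HUWE1-CS libraries were above the rest. Of 34 genes of BMP and TGF-beta signalling 2 rose and 3 fell, near the background. Absent from the genes counted were 11 of 45 typed symbols, SMAD7 and BMP2 among them. GDF15 (chromosome 19, 18485541 to 18499986, plus strand), a stress-induced cytokine of this superfamily and known p53 target, was at 108, 145 and 119 CPM in HUWE1-P, 147, 151 and 129.7 CPM in HUWE1-WT and 434, 442 and 413 CPM in HUWE1-CS libraries. The HUWE1-CS libraries stood apart (log2 fold change 1.79 ± 0.078 SE, adjusted p = 3.74e-37, edgeR). The ligand BMP7 also rose (0.79), and SMAD3 (-0.65), which carries TGF-beta signals to the nucleus, and the ligand BMP4 (-0.49) fell. KLF2 (without P2, P3 or CS3, adjusted p up to 0.0801) and BMP7 (without P2, P3 or CS1, adjusted p up to 0.0338) lost their calls in edgeR with 1 library left out. Such omissions left 1 to 2 AP-1 and immediate early genes called lower (without P3) and 1 to 3 BMP and TGF-beta signalling genes called higher (without P2, P3 or CS1). Against HUWE1-WT cells, JUNB (0.27, adjusted p = 0.0542) and BMP7 (0.56, adjusted p = 0.0333) were not called in edgeR.

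Cyclic AMP is made by adenylyl cyclases, degraded by phosphodiesterases (PDE) and read by protein kinase A, which is tethered by AKAP proteins. Of 28 genes of this system 6 fell (21.4%) and 4 rose (14.3%), beside 8.58% and 8.46% of all genes. SCG2 (chromosome 2, 224461658 to 224467079, minus strand), a secretory granule protein known to be induced by cAMP, was at 22.4, 20.2 and 22.2 CPM in HUWE1-P, 25.5, 15.3 and 18.6 CPM in HUWE1-WT and 148, 128 and 166 CPM in HUWE1-CS libraries. This was a rise far beyond the spread (log2 fold change 2.77 ± 0.13 SE, adjusted p = 1.64e-33, edgeR). The phosphodiesterases went in both directions. PDE3B was at 15.5, 24.7 and 32.8 CPM in HUWE1-P, 19.1, 15.3 and 18.0 CPM in HUWE1-WT and 6.53, 6.24 and 8.71 CPM in HUWE1-CS libraries. PDE4B was at 104, 116 and 106 CPM in HUWE1-P, 119.9, 109.6 and 98.3 CPM in HUWE1-WT and 222, 198 and 215 CPM in HUWE1-CS libraries. PDE3B was lower in all HUWE1-CS libraries (-1.79) and PDE4B higher (0.96), and PDE4A fell by 0.81. PDE4D had 1 count in all HUWE1-P libraries together and 37 in all HUWE1-CS libraries, a ratio of 39.1 with a 95% exact counting interval of 6.60 to 1587. AKAP12, an abundant anchor of protein kinase A, was at 2017, 2035 and 2056 CPM in HUWE1-P, 1852, 1758 and 1864 CPM in HUWE1-WT and 1053, 1026 and 1148 CPM in HUWE1-CS libraries. It was lower in every HUWE1-CS library (-0.92), and PRKACB (-0.54), a catalytic subunit of the kinase, fell as well.

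Glucose is taken up by transporters, trapped by hexokinases and broken down to pyruvate by the glycolytic enzymes. Of 18 enzymes 7 rose (38.9%) and 4 fell (22.2%), 61.1% of the list. Of the 214 genes at 500 CPM or more, without ribosomal proteins, 20.6% rose and 29.4% fell. SLC2A1 (chromosome 1, 43391024 to 43424564, minus strand), the glucose transporter GLUT1, which was counted with the solute carriers and the hypoxia response genes, was at 167, 177 and 191 CPM in HUWE1-P, 208, 205 and 200.0 CPM in HUWE1-WT and 469, 460.5 and 471 CPM in HUWE1-CS libraries. HK2, a hexokinase, was at 118, 112 and 128 CPM in HUWE1-P, 119, 125 and 109 CPM in HUWE1-WT and 49.9, 58.4 and 63.9 CPM in HUWE1-CS libraries. Each HUWE1-CS library was above the rest for SLC2A1 (log2 fold change 1.38 ± 0.069 SE, adjusted p = 1.33e-32, edgeR) and below it for HK2 (log2 fold change -1.06 ± 0.11 SE, adjusted p = 1.07e-13, edgeR). HK1 also fell (-0.42). The isoforms of phosphofructokinase moved apart, with PFKP lower (-0.53) and PFKL and PFKM higher (0.45 and 0.32), and so did the lactate dehydrogenase chains, LDHA lower (-0.28) and LDHB higher (0.28). TPI1, triose phosphate isomerase, rose by 0.31. Of 29 hypoxia response genes 2 rose, SLC2A1 and NDRG1 (0.37), and 5 fell, among them ADM (-0.63), PLOD1 (-0.36) and the lactate exporter SLC16A3 (-0.26). HK1 (without P2 or CS2, adjusted p up to 0.0158), PFKM (without P1, adjusted p up to 0.0111), NDRG1 (without P1, P2, CS2 or CS3, adjusted p up to 0.0507), ADM (without P2, adjusted p up to 0.0211) and SLC16A3 (without CS3, adjusted p up to 0.0188) lost their calls in edgeR with 1 library left out. Such omissions left 3 to 7 glycolysis enzymes called higher (without P1 or P3), 1 to 2 hypoxia response genes called higher (without P1, P2, CS2 or CS3) and 2 to 6 hypoxia response genes called lower (without P2 or CS3). Against HUWE1-WT cells, NDRG1 (-0.035, adjusted p = 0.852) was not called in edgeR.

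Of 8 pentose phosphate enzymes 2 were called higher, among them transketolase, TKT (0.19), and 0 lower. Of 22 enzymes of the TCA cycle 4 rose (18.2%) and 2 fell (9.09%). Citrate synthase, CS, was at 361, 314 and 342 CPM in HUWE1-P, 319, 328 and 333 CPM in HUWE1-WT and 201, 221 and 235 CPM in HUWE1-CS libraries, and was lower in every HUWE1-CS library (-0.63). Pyruvate carboxylase, PC, which feeds the cycle with oxaloacetate, fell by 1.44, and IDH2, the mitochondrial NADP-dependent isocitrate dehydrogenase, rose by 0.89. Malate dehydrogenase MDH2 rose by 0.41. Of 17 enzymes of purine and pyrimidine synthesis 4 fell (23.5%) and 0 rose. CAD, which carries out the first steps of pyrimidine synthesis, was at 309.7, 316 and 318 CPM in HUWE1-P, 291, 278 and 262 CPM in HUWE1-WT and 209.5, 216 and 208 CPM in HUWE1-CS libraries, with HUWE1-CS libraries below the rest (-0.58). The other members called lower were PRPS1 (-0.34) and PRPS2 (-0.35), which supply the ribose phosphate, and IMPDH1 (-0.34) of guanine nucleotide synthesis. TKT (without P1, P2, P3, WT3, CS1 or CS2, adjusted p up to 0.0462), PRPS1 (without P1, P2, P3, WT2, WT3, CS1 or CS2, adjusted p up to 0.104), PRPS2 (without P1, P2, CS1 or CS3, adjusted p up to 0.0387) and IMPDH1 (without P1, P3, CS1 or CS3, adjusted p up to 0.0297) lost their calls in edgeR with 1 library left out. Such omissions left 0 to 3 pentose phosphate enzymes called higher (without P1, P2, P3, WT3, CS1 or CS2) and 1 to 4 purine and pyrimidine synthesis enzymes called lower (without P1, P2, P3, CS1 or CS3). Against HUWE1-WT cells, TKT (0.13, adjusted p = 0.103), PRPS1 (-0.28, adjusted p = 0.047) and IMPDH1 (-0.27, adjusted p = 0.0208) were not called in edgeR.

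The factor ATF4 is known to induce amino acid transporters and the enzymes of serine and asparagine synthesis. Of 28 genes of this response 7 rose and 4 fell. ATF4 (0.32), the enzymes PHGDH (0.40), PSAT1 (0.32), ASNS (0.34) and MTHFD2 (0.28) and the mitochondrial PCK2 rose. PCK2 was at 24.8, 18.5 and 23.6 CPM in HUWE1-P, 24.9, 33.8 and 22.7 CPM in HUWE1-WT and 46.3, 41.4 and 47.0 CPM in HUWE1-CS libraries. The members that fell were 3 amino acid transporters, SLC38A2 (-0.62), SLC7A1 (-0.53) and SLC7A5 (-0.40), and the enzyme SHMT2 (-0.24). Of 17 serine and one-carbon enzymes, a list that shares members with the former, 3 rose (PHGDH, PSAT1 and MTHFD2) and 4 fell, the cytosolic MTHFD1 (-0.33) furthest. PHGDH (without P1 or CS2, adjusted p up to 0.0296), PSAT1 (without P2, P3 or CS1, adjusted p up to 0.0381), ASNS (without P1, P2 or CS3, adjusted p up to 0.043) and SHMT2 (without P1, P2, CS1 or CS3, adjusted p up to 0.0844) lost their calls in edgeR with 1 library left out. Such omissions left 4 to 7 ATF4 and amino acid response genes called higher (without P1) and 1 to 4 serine and one-carbon enzymes called lower (without P1, P2, P3, CS1, CS2 or CS3). Against HUWE1-WT cells, PHGDH (0.28, adjusted p = 0.0355), PSAT1 (0.23, adjusted p = 0.0311) and ASNS (0.23, adjusted p = 0.061) were not called in edgeR.

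Of 153 solute carriers 12 rose (7.84%) and 19 fell (12.4%), beside 8.46% and 8.58% of all genes. Beside SLC2A1, the choline transporter family member SLC44A1 (0.50), the bicarbonate exchanger family member SLC4A3 (0.91) and the sugar transporter SLC50A1 (0.72) were among those that rose. The member with the largest difference, SLC44A5 (2.16), also of the choline transporter family, was not called against HUWE1-WT cells (1.43, adjusted p = 0.0169, edgeR). The lower members included 7 amino acid transporters of the SLC1, SLC7 and SLC38 families, among them SLC7A2 (-0.84) and, as above, SLC38A2 and SLC7A1, the folate and thiamine carriers SLC19A1 (-0.39) and SLC19A2 (-0.93), and the vesicular nucleotide carrier SLC17A9 (-1.07). Of 36 mitochondrial carriers 4 rose (11.1%) and 2 fell (5.56%), near the background. Those that rose included the ADP/ATP carriers SLC25A5 (0.28) and SLC25A6 (0.50) and the oxoglutarate carrier SLC25A11 (0.52). SLC25A24 (-0.52) and SLC25A29 (-0.63) fell. SLC25A24 (without P3, CS2 or CS3, adjusted p up to 0.0422) and SLC25A29 (without P2, P3 or CS1, adjusted p up to 0.0413) lost their calls in edgeR with 1 library left out. Such omissions left 7 to 14 solute carriers called higher (without P3) and 0 to 2 mitochondrial SLC25 carriers called lower (without P2, P3, CS1, CS2 or CS3). Against HUWE1-WT cells, SLC44A1 (0.27, adjusted p = 0.0287) was not called in edgeR.

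NRF2 is the main inducer of antioxidant enzymes, and metallothioneins and ferritin bind zinc, copper and iron. Of 24 NRF2 targets 5 rose (20.8%) and 4 fell (16.7%), beside 8.46% and 8.58% of all genes. The export pump ABCC2 was at 173, 173 and 165 CPM in HUWE1-P, 212, 159 and 140.1 CPM in HUWE1-WT and 71.8, 65.8 and 73.2 CPM in HUWE1-CS libraries. It was lower in HUWE1-CS libraries than in all others (-1.28), and the thioredoxin reductase TXNRD1 fell by 0.73. The 5 that rose had differences between 0.19 (PRDX1) and 0.47 (FTL). Among 13 iron, ferritin and metallothionein genes, the ferritin chains FTL and FTH1 (0.33) rose and the transferrin receptor TFRC fell (-0.32). The metallothioneins MT2A, MT1X (-1.58) and MT1E (-0.52) fell. MT2A was at 232, 244 and 242 CPM in HUWE1-P, 203, 247 and 227 CPM in HUWE1-WT and 102, 123 and 132 CPM in HUWE1-CS libraries, with HUWE1-CS libraries below the others (-1.01). The metallothionein genes are close copies of each other, so that the split of reads among them is uncertain. PRDX1 (without P1, P2, P3, WT3, CS2 or CS3, adjusted p up to 0.0531) lost its call in edgeR with 1 library left out. Such omissions left 2 to 5 NRF2 target genes called higher (without P1, P2, P3, WT3, CS1 or CS2). Against HUWE1-WT cells, PRDX1 (0.17, adjusted p = 0.0172) and TFRC (-0.069, adjusted p = 0.482) were not called in edgeR.

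Cytosolic chaperones fold new and damaged proteins. Of 46 members 11 fell (23.9%) and 2 rose, with a median of -0.12, -0.13 over HUWE1-WT cells, and 0.0010 in HUWE1-WT against HUWE1-P cells. Their summed level was 24550 to 25970 CPM in HUWE1-P libraries. Among the 214 genes at 500 CPM or more, without ribosomal proteins, 29.4% were called lower, a larger share. HSPH1, a nucleotide exchange factor of HSP70, was at 398, 339.6 and 365 CPM in HUWE1-P, 356, 333 and 355 CPM in HUWE1-WT and 172, 174 and 207 CPM in HUWE1-CS libraries. Its HUWE1-CS libraries lay below the rest (log2 fold change -1.0 ± 0.074 SE, adjusted p = 3.23e-21, edgeR). The HSP70 co-chaperones DNAJB4 (-0.92), DNAJB1 (-0.46), BAG3 (-0.59) and BAG2 (-0.48) fell. HSPA1A (-0.38) and HSPA1B (-0.36) also fell, but are near-identical copies that counting may not separate. The 2 that rose were the prefoldin subunit PFDN5 (0.65) and the chaperonin subunit CCT7 (0.29). Of 27 genes of the endoplasmic reticulum and unfolded protein response, 0 rose and 2 fell, CREB3L2 (-0.67) and P4HB (-0.21). BAG2 (without P2 or CS3, adjusted p up to 0.0143) and P4HB (without P1 or CS3, adjusted p up to 0.0221) lost their calls in edgeR with 1 library left out. Such omissions left 1 to 3 ER chaperone and unfolded protein response genes called lower (without CS3).

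The proteasome degrades ubiquitylated proteins, and its core can be capped by a regulatory particle (PSMC and PSMD subunits) or by the PSME activators. Of 47 members 6 fell (12.8%) and 2 rose (4.26%), beside 8.58% and 8.46% of all genes. The 2 that rose are the subunits of the 11S activator, the neighbouring genes PSME1 (chromosome 14, 24605372 to 24608176, plus strand) and PSME2 (chromosome 14, 24612571 to 24616779, minus strand). PSME1 was at 83.8, 82.5 and 74.7 CPM in HUWE1-P, 80.5, 92.2 and 69.8 CPM in HUWE1-WT and 157, 154 and 159 CPM in HUWE1-CS libraries. PSME2 was at 44.7, 64.0 and 46.2 CPM in HUWE1-P, 49.8, 61.1 and 54.1 CPM in HUWE1-WT and 80.1, 87.9 and 94.1 CPM in HUWE1-CS libraries. The HUWE1-CS libraries of both were above all others (0.97 and 0.76). Of the 6 that fell, 5 are subunits of the regulatory particle, with PSMC2 (-0.45) and PSMD13 (-0.39) having the largest differences, and the other is the activator PSME4 (-0.42). With the length trend taken out 12 members were called lower. Against HUWE1-WT cells, PSMC2 (-0.25, adjusted p = 0.0344) was not called in edgeR.

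Of 45 lysosomal genes 6 rose (13.3%) and 2 fell (4.44%), beside 8.46% and 8.58% of all genes. PSAP, the precursor of the saposins that aid sphingolipid breakdown (0.60), the acid glucosidase GAA (0.57) and the fucosidase FUCA1 (0.69) rose, while the membrane protein TMEM192 fell by 1.07 and the cation channel MCOLN1 by 0.72. Of 17 subunits of the vacuolar proton pump 2 rose and 0 fell, ATP6V1G1 (0.44) and ATP6AP2 (0.36). Of 36 autophagy genes 4 rose and 4 fell (11.1% each), near the background. WIPI2 (0.39) and the receptor TAX1BP1 (0.34) were among those that rose. Those that fell included ATG12 (-0.95), which is conjugated to ATG5, and RB1CC1 (-0.86) of the initiation complex. ATG12 overlaps AP3S1 on the other strand (-0.45). FUCA1 (without CS1, adjusted p up to 0.0152), MCOLN1 (without P1, P3, CS2 or CS3, adjusted p up to 0.0348), ATP6AP2 (without P1, P2 or CS2, adjusted p up to 0.0569), WIPI2 (without P3 or CS2, adjusted p up to 0.0188) and TAX1BP1 (without P1, P2 or CS1, adjusted p up to 0.0488) lost their calls in edgeR with 1 library left out. Such omissions left 1 to 3 lysosomal hydrolases and membrane proteins called lower (without P3, CS2 or CS3), 1 to 3 vacuolar ATPase subunits called higher (without P1 or P2), 0 to 1 vacuolar ATPase subunits called lower (without P3) and 1 to 4 autophagy genes called higher (without P1, P3, CS1 or CS2). Against HUWE1-WT cells, MCOLN1 (-0.46, adjusted p = 0.0888) and ATP6AP2 (0.23, adjusted p = 0.0963) were not called in edgeR.

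Of 26 genes of the COPI and COPII coats, which bud vesicles from the Golgi and the endoplasmic reticulum, 4 rose and 4 fell (15.4% each). SEC31A (chromosome 4, 83739662 to 83822319, minus strand), the outer COPII coat, was at 76.3, 82.5 and 81.4 CPM in HUWE1-P, 71.3, 64.3 and 84.9 CPM in HUWE1-WT and 10.1, 10.8 and 9.87 CPM in HUWE1-CS libraries. Its HUWE1-CS libraries held far fewer counts than all others (log2 fold change -2.96 ± 0.17 SE, adjusted p = 1.08e-27, edgeR). Its span overlaps THAP9 on the other strand, which was low in every library (at most 8.67 CPM). The other outer coat and adaptor genes moved less, with COPG1 (-0.56), SEC24A (-0.53) and SAR1B (-0.57) lower and SEC23A (0.33), SEC23B (0.37) and COPZ1 (0.39) higher. The spans of SEC24A and SAR1B overlap each other on opposite strands, so that their counts may not be separate. SEC24A (without P1, P2 or CS2, adjusted p up to 0.0438), SAR1B (without P2 or CS2, adjusted p up to 0.0311) and SEC23A (without P2, adjusted p up to 0.0116) lost their calls in edgeR with 1 library left out. Such omissions left 2 to 4 COPI and COPII coat genes called lower (without P2 or CS2). Against HUWE1-WT cells, SEC24A (-0.39, adjusted p = 0.0405) and SEC23B (0.26, adjusted p = 0.0139) were not called in edgeR.

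Among the enzymes of ubiquitin transfer, calls were near or below the background of 17.0%. Of 28 HECT ligases 0 rose and 3 fell, HUWE1, NEDD4 (-1.06) and NEDD4L (-0.67). With the length trend taken out the median of the list moved from -0.15 to -0.0080. Of 32 E2 enzymes 3 rose, with UBE2L6, an E2 of the ubiquitin-like protein ISG15, the highest (1.07) and UBE2Z (0.41) among the others, and UBE2H, an E2 of the GID ligase, fell. UBE2H was at 188, 172 and 181 CPM in HUWE1-P, 164, 149 and 168 CPM in HUWE1-WT and 109.8, 72.6 and 92.9 CPM in HUWE1-CS libraries, without overlap (-0.98). Of 66 deubiquitinases 4 rose and 5 fell, with USP11 (0.77) and USP45 (0.66) among the former and USP13 (-0.60) and USP12 (-0.56) among the latter. Of 100 cullin-RING ligase genes 7 rose, among them the adaptors SKP1 (0.52) and ELOB (0.68), and 4 fell, among them the substrate receptors SKP2 (-0.61) and FBXW7 (-0.81) and the signalosome subunit COPS2 (-0.48). NEDD4 (without P3, adjusted p up to 0.0235), SKP2 (without CS2, adjusted p up to 0.0121) and FBXW7 (without CS3, adjusted p up to 0.0196) lost their calls in edgeR with 1 library left out. Such omissions left 2 to 5 HECT ubiquitin ligases called lower (without CS3), 2 to 4 deubiquitinases called higher (without CS1), 2 to 5 deubiquitinases called lower (without P1, P3, CS1 or CS2), 4 to 7 cullin-RING ligase genes called higher (without P2) and 2 to 4 cullin-RING ligase genes called lower (without CS2).

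The study concerned WRNIP1, a protein of stalled replication forks, and the ATM kinase, which is activated at DNA breaks by the MRE11, RAD50 and NBN complex. WRNIP1 (chromosome 6, 2765627 to 2787186, plus strand) was at 152, 141 and 130.1 CPM in HUWE1-P, 148, 149 and 137 CPM in HUWE1-WT and 192, 175 and 187 CPM in HUWE1-CS libraries. The HUWE1-CS libraries were above the other 6 by a small margin (log2 fold change 0.39 ± 0.083 SE, adjusted p = 0.0001, edgeR). ATM was at 44.7, 39.3 and 37.6 CPM in HUWE1-P, 31.9, 28.9 and 29.6 CPM in HUWE1-WT and 31.4, 26.6 and 34.3 CPM in HUWE1-CS libraries, with overlapping HUWE1-WT and HUWE1-CS libraries below those of HUWE1-P, and was not called (log2 fold change -0.39 ± 0.16 SE, adjusted p = 0.058, edgeR). RAD50 (-0.054) and MRE11 (-0.041) were not called and their lines overlapped. NBN differed by -0.38. POLR2A, the largest subunit of RNA polymerase II, was at 426, 461 and 391 CPM in HUWE1-P, 428, 381 and 386 CPM in HUWE1-WT and 500.3, 450.3 and 516 CPM in HUWE1-CS libraries, and was not called (log2 fold change 0.20 ± 0.066 SE, adjusted p = 0.0166, edgeR), although it was called with only the HUWE1-CS and HUWE1-P libraries (0.21), with the length trend taken out (0.32), or without P2 (0.26), WT2 (0.21) or CS2 (0.26). NBN (without P1, P3, CS2 or CS3, adjusted p up to 0.041) lost its call in edgeR with 1 library left out.

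Of 57 genes of damage signalling and break repair 2 were called higher, WRNIP1 and TRIM28 (0.29), a corepressor phosphorylated by ATM, and 6 lower. The shares were 3.51% and 10.5%, beside 8.46% and 8.58% of all genes. The median was -0.20 beside -0.069 over HUWE1-WT cells and -0.041 in HUWE1-WT against HUWE1-P cells. The lower calls were NBN, CLSPN (-0.45), which brings CHK1 to ATR, RBBP8 (-0.45), which starts end resection, the recombination factors RAD51D (-0.87) and XRCC3 (-0.47), and the nuclease scaffold SLX4 (-0.86). RAD51D was at 18.0, 16.3 and 16.9 CPM in HUWE1-P, 11, 8.18 and 9.88 CPM in HUWE1-WT and 11.9, 6.24 and 9.87 CPM in HUWE1-CS libraries. Its HUWE1-WT libraries overlapped with the HUWE1-CS libraries, with a difference between them of -0.057 (adjusted p = 0.922, edgeR). With the length trend taken out, 6 members were called higher and 3 lower and the median was -0.085. RBBP8 (without P1, adjusted p up to 0.0233), RAD51D (without P1, P2, P3, CS2 or CS3, adjusted p up to 0.101), XRCC3 (without P1, P2, P3, WT2, WT3, CS2 or CS3, adjusted p up to 0.135) and SLX4 (without P2, CS1 or CS2, adjusted p up to 0.0421) lost their calls in edgeR with 1 library left out. Such omissions left 2 to 6 damage signalling and break repair genes called lower (without P1, P3 or CS2). Against HUWE1-WT cells, CLSPN (-0.28, adjusted p = 0.0394), XRCC3 (-0.34, adjusted p = 0.0799) and SLX4 (-0.61, adjusted p = 0.0587) were not called in edgeR.

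Of 61 genes of RNA polymerase II and its factors 7 rose (11.5%) and 1 fell (1.64%), beside 8.46% and 8.58% of all genes. GTF2H5 (0.82) and GTF2H3 (0.58) of TFIIH, SUPT4H1 (0.67) of the DSIF complex and the P-TEFb inhibitor HEXIM1 (0.45) rose, and MLLT1 of the super elongation complex fell (-0.48). Of 33 Mediator subunits 0 were called, 8 had an unadjusted p under 0.05, and 0 were called with DESeq2. Of 65 spliceosome and SR protein genes 6 rose and 4 fell, near the background, with SRSF8 (0.63) highest and the large scaffold SRRM2 (-0.41) lowest. The Sm-like protein LSM4 rose by 0.42, and the SR protein SRSF1 fell by 0.29. Omission of 1 library left 1 to 2 RNA polymerase II subunits and elongation factors called lower (without P2 or WT1), 0 to 2 Mediator subunits called lower (without P3 or CS3), 3 to 6 spliceosome and SR protein genes called higher (without CS3) and 2 to 5 spliceosome and SR protein genes called lower (without P3). Against HUWE1-WT cells, GTF2H5 (0.39, adjusted p = 0.065) and SRRM2 (-0.14, adjusted p = 0.115) were not called in edgeR.

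Chromatin remodellers shift nucleosomes with the energy of ATP, and histone lysine methyltransferases and demethylases set marks such as H3K4 methylation. Of 42 remodelling genes 9 fell (21.4%), among them CHD3 (-0.82), CHD5 (-1.20) and INO80 (-0.63), and 4 rose (9.52%), SMARCD2 (0.39) and SMARCAL1 (0.73) among them. Of 58 methyltransferases and demethylases 6 fell (10.3%, near the 8.58% of all genes), among them PRDM16 (-1.55), DOT1L (-0.52) and KMT2C (-0.56), and only the demethylase KDM7A rose. KDM7A was at 9.93, 12.3 and 12.1 CPM in HUWE1-P, 9.85, 14.2 and 15.7 CPM in HUWE1-WT and 27.9, 22.1 and 30.8 CPM in HUWE1-CS libraries, without overlap (1.22). These lists hold long transcripts, and with the length trend taken out 5 remodelling genes were higher and 5 lower, and 5 and 2 of the methyltransferase list. SMARCAL1 (without P3, adjusted p up to 0.017), PRDM16 (without CS3, adjusted p up to 0.0212) and KMT2C (without P1, P2, P3 or CS2, adjusted p up to 0.259) lost their calls in edgeR with 1 library left out. Such omissions left 2 to 4 chromatin remodelling ATPases and subunits called higher (without P3 or CS3), 1 to 2 histone lysine methyltransferases and demethylases called higher (without P2, WT1, WT2 or CS3) and 2 to 8 histone lysine methyltransferases and demethylases called lower (without P3 or CS2). Against HUWE1-WT cells, SMARCAL1 (0.50, adjusted p = 0.0254) and KMT2C (-0.40, adjusted p = 0.0814) were not called in edgeR.

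Of 290 genes named ZNF, most of them DNA-binding repressors, 7 rose and 11 fell, 6.21% against 17.0% of all genes. Their summed level was 6889 to 7126 CPM in HUWE1-P libraries, and few counts limit calls at low levels. ZNF440 (chromosome 19, 11925088 to 11946031, plus strand) had 77 counts over the HUWE1-P libraries and 2 over the HUWE1-CS libraries, a ratio of 36.4 with a 95% exact counting interval of 9.74 to 306. In CPM it was at 14.9, 11.2 and 15.9 CPM in HUWE1-P, 12.8, 16.9 and 14.5 CPM in HUWE1-WT and 1.19, 0 and 0 CPM in HUWE1-CS libraries. ZNF266 was at 5.59, 10.1 and 4.34 CPM in HUWE1-P, 5.21, 9.82 and 8.72 CPM in HUWE1-WT and 0.593, 0.567 and 1.16 CPM in HUWE1-CS libraries, also low in all HUWE1-CS libraries (-2.98). ZNF512B fell by 1.01, and ZNF219 (0.86) and ZNF768 (0.63) rose. With the length trend taken out, 15 ZNF genes were higher and 8 lower. ZNF219 (without CS3, adjusted p up to 0.0194) lost its call in edgeR with 1 library left out. Such omissions left 3 to 7 zinc finger genes named ZNF called higher (without P1, P3, CS1 or CS3) and 6 to 12 zinc finger genes named ZNF called lower (without CS1 or CS2). Against HUWE1-WT cells, ZNF768 (0.39, adjusted p = 0.0104) was not called in edgeR.

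Of 31 interferon response genes 1 rose (3.23%) and 3 fell (9.68%, near the 8.58% of all genes), SAMD9 (-1.94), OAS3 (-0.69) and IFIT5 (-0.60). Of 52 symbols typed for this list 20 were not among the genes counted, MX1, IFIT1 and OAS1 among them, so that the response was tested only in part. Of 14 antigen presentation genes 3 rose (21.4%) and 2 fell (14.3%). Absent from the genes counted were 7 of 21 typed symbols, PSMB8 and PSMB9 among them. The MHC class I chains HLA-C (0.54) and HLA-E (0.49) rose, and their common light chain B2M (-0.35) and the peptide transporter subunit TAP2 (-0.60) fell. HLA-C was at 230.3, 207 and 219.7 CPM in HUWE1-P, 234, 269.9 and 242 CPM in HUWE1-WT and 313, 320.4 and 320.5 CPM in HUWE1-CS libraries, with HUWE1-CS libraries above the rest, but the HLA genes are close copies whose reads may be split in counting. IFIT5 (without P1, P2, CS1 or CS2, adjusted p up to 0.0476) lost its call in edgeR with 1 library left out. Against HUWE1-WT cells, IFIT5 (-0.40, adjusted p = 0.0742) was not called in edgeR.

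Among called genes of no list with at least 20 CPM in one of the lines, the lowest were NRIP1, CPA4, ZBED2, GJC1, DKK1, KATNAL1 and MRC2. NRIP1 (chromosome 21, 16333556 to 16438257, minus strand), a corepressor of nuclear receptors, had 348 counts over the HUWE1-P libraries and 3 over the HUWE1-CS libraries, a ratio of 109.7 with a 95% exact counting interval of 37.2 to 534. In CPM it was at 67.7, 66.2 and 58.3 CPM in HUWE1-P, 68.4, 53.4 and 74.4 CPM in HUWE1-WT and 1.19, 0.567 and 0 CPM in HUWE1-CS libraries. The message was at or near the floor in HUWE1-CS libraries and between 53.4 and 74.4 CPM in the 6 others. CPA4, a secreted carboxypeptidase, was at 49.7, 35.9 and 41.4 CPM in HUWE1-P, 32.5, 32.2 and 39.5 CPM in HUWE1-WT and 4.75, 5.10 and 7.55 CPM in HUWE1-CS libraries. GJC1, connexin 45 of gap junctions, was at 110.5, 111 and 115 CPM in HUWE1-P, 105, 88.3 and 101 CPM in HUWE1-WT and 21.4, 21.0 and 25.6 CPM in HUWE1-CS libraries. DKK1, a secreted inhibitor of Wnt receptors, was at 562, 617 and 559 CPM in HUWE1-P, 557, 609.7 and 578 CPM in HUWE1-WT and 113, 118 and 122 CPM in HUWE1-CS libraries. In each of these the HUWE1-CS libraries lay far below both other lines, with differences of -2.84, -2.30 and -2.30. ZBED2, a zinc finger factor derived from a transposase, differed by -2.72, the microtubule-severing KATNAL1 by -2.23 and the collagen receptor MRC2 by -2.20.

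The highest genes of no list were TM7SF2, TSPAN1, a gene without a symbol, TP53I3, CA2, VSNL1, TNNI3 and FDXR. TM7SF2 (chromosome 11, 64879317 to 64883856, plus strand), a sterol reductase, was at 21.1, 14.0 and 13.5 CPM in HUWE1-P, 23.2, 22.4 and 17.4 CPM in HUWE1-WT and 74.8, 84.5 and 68.5 CPM in HUWE1-CS libraries. FDXR, ferredoxin reductase of mitochondria and a known p53 target, was at 88.8, 98.8 and 89.1 CPM in HUWE1-P, 99.1, 93.2 and 98.8 CPM in HUWE1-WT and 259.9, 292 and 274 CPM in HUWE1-CS libraries. CA2, carbonic anhydrase 2, was at 34.1, 33.1 and 27.0 CPM in HUWE1-P, 46.4, 41.4 and 40.1 CPM in HUWE1-WT and 92.6, 99.8 and 113 CPM in HUWE1-CS libraries. The HUWE1-CS libraries were above the rest (2.25, 1.58 and 1.71), and the HUWE1-WT libraries of CA2 lay above the HUWE1-P libraries without a call (0.45, adjusted p = 0.598, edgeR). The tetraspanin TSPAN1 differed by 1.87, TP53I3, another p53 target, by 1.73, the calcium sensor VSNL1 by 1.70 and troponin I of the heart, TNNI3, by 1.63, each from a mean of at most 11.2 ± 3.44 CPM in HUWE1-P cells.

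**Figure D2:**
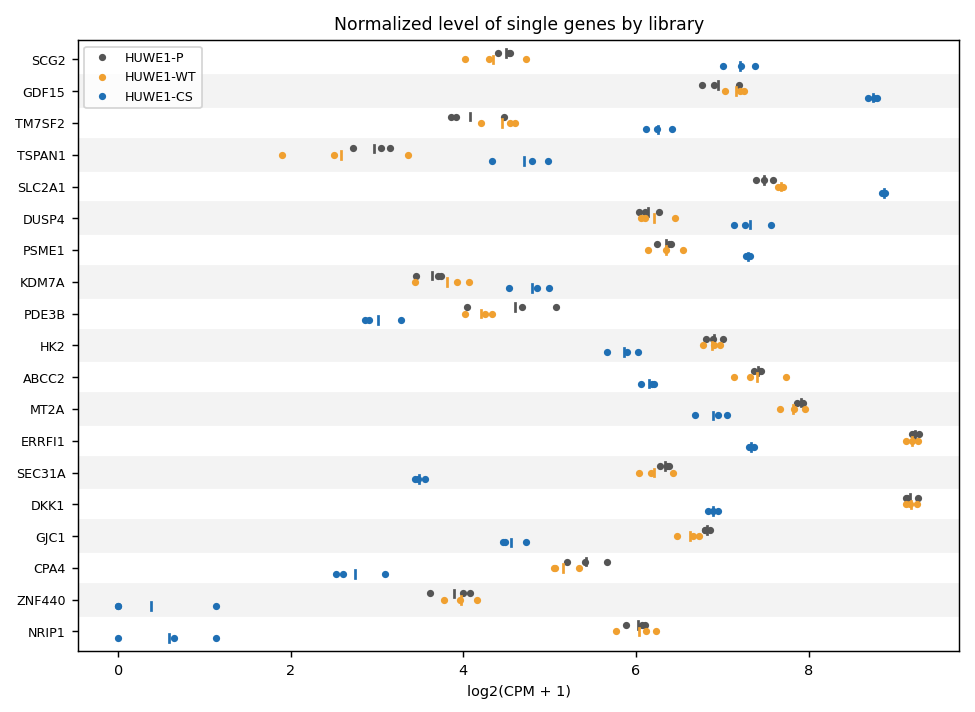
Log2(CPM + 1) in every library of 19 genes with large differences; points are libraries and short vertical bars are means of 3. HUWE1-CS libraries (blue) lie above both other lines for the upper 8 genes and below them for the lower 11, and reach 0 for ZNF440 and NRIP1.

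Symbols were also grouped by the letters before their first digit, and 77 such groups had at least 15 tested genes. The largest shares called higher, beside 8.46% of all genes, were those of RPL (48 of 58, 5 of the 48 with symbols of ribosomal protein pseudogenes), RPS (31 of 42, the others largely RPS6K kinases) and COX (9 of 23). The COX genes called higher are subunits of cytochrome c oxidase encoded in the nucleus, such as COX6C (0.64), and those called lower are encoded in mitochondria, COX1 (-0.52), COX2 (-0.46) and COX3 (-0.47). With 1 library left out, 47 to 49 RPL, 29 to 31 RPS and 8 to 9 COX genes were called higher. The largest shares called lower, the extremes of 77 groups, were those of DHX (4 of 15, 26.7%), LRRC (6 of 26, 23.1%) and the letter B (5 of 22, 22.7%), beside 8.58% of all genes. Their median log2 fold changes were 0.022, -0.13 and -0.080, so that the DHX group as a whole was not lower. The counts called lower moved more, to 2 to 4 DHX genes (fewest without P3 or CS2), 2 to 6 LRRC genes (fewest without P3 or CS3, and lower by over 1.5 times without P1 or CS2) and 3 to 5 B genes (fewest without P1). The DHX genes are RNA helicases, of which DHX57 (-0.87) and DHX37 (-0.85) had the largest differences. Of the lower LRRC genes, LRRC8A (-0.50), LRRC8B (-0.54) and LRRC8C (-0.68) form volume-regulated anion channels. Under B, 4 of the 5 were glycosyltransferases, B4GALNT1 (-1.09), B3GNT5 (-0.91), B3GALNT1 (-0.82) and B4GALT1 (-0.49), beside B2M. COX2 (without CS3, adjusted p up to 0.0121), LRRC8A (without P2, P3, CS2 or CS3, adjusted p up to 0.044), LRRC8B (without P3 or CS3, adjusted p up to 0.0188), LRRC8C (without P1 or CS2, adjusted p up to 0.0393), B3GALNT1 (without P1 or CS2, adjusted p up to 0.0662) and B4GALT1 (without P1, adjusted p up to 0.0101) lost their calls in edgeR with 1 library left out. Against HUWE1-WT cells, COX1 (-0.20, adjusted p = 0.0238), COX2 (-0.18, adjusted p = 0.14), COX3 (-0.14, adjusted p = 0.172), LRRC8B (-0.35, adjusted p = 0.0606), B3GALNT1 (-0.60, adjusted p = 0.0487) and B4GALT1 (-0.32, adjusted p = 0.0433) were not called in edgeR.

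Calls followed the length of the transcript. Of the shortest of 5 equal groups of genes, 18.0% were called higher and 3.12% lower, and of the longest, 3.44% and 14.4%. The median log2 fold change moved from 0.13 to -0.12 for HUWE1-CS over HUWE1-P cells, and from 0.025 to -0.046 in HUWE1-WT against HUWE1-P cells. The ribosomal protein list had a median length of 869 bases, the chromatin remodelling list 6428 bases and all genes 3352 bases. Actin genes, with a median of 3249 bases, keratins (1784 bases) and cytosolic chaperones (2388 bases) had medians below that of all genes, and 23 of 57, 4 of 9 and 11 of 46 members were called lower. Matrix (5803 bases), YAP-TEAD (5401 bases) and integrin genes (4440 bases) had medians above it, with 13, 11 and 4 members called lower. With the length trend taken out, lower calls were 24, 4 and 16 for the first 3 lists and 10, 9 and 4 for the others. The integrin median moved from -0.074 to 0.041. What underlies the trend was not tested.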

How the data were processed

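Poly(A) RNA of untreated cells of the 3 lines, 3 libraries each, was sequenced in single-end reads. Per the labels and the study's methods, the authors demultiplexed with bcl2fastq 2.20, trimmed adapters with Skewer, aligned to hg19 with STAR 2.5.4 and deposited raw read counts per gene. The counting tool, its annotation and its use of strand are not given in the sources used here. Named genes whose spans overlap each other on opposite strands include KRT8 and KRT18, SEC24A and SAR1B, and ELOB and SRRM2. The lowest sum over the 9 libraries of any gene in the deposited table was 41 counts, so that genes with few reads are absent from it. Deposited tables of the authors' own comparisons hold log2 fold changes, F statistics and p-values and were not used. Rows with an identifier but no symbol (147 genes, 0.505% of counts) were kept.

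Counts were fitted with edgeR 4.0.16 in R 4.3.3 (glmQLFit and glmQLFTest in legacy mode, TMM, all 9 libraries, 1 mean per line, no filter on low counts), and p-values were adjusted over all 11350 genes by the Benjamini-Hochberg method. The SE is the log2 fold change divided by the square root of F. The biological coefficient of variation was 4.77%. On simulated counts for the contrast of HUWE1-CS with HUWE1-P, drawn for 11350 genes, 45.7% of genes changed by 0.5 (log2) and 88.3% of those changed by 1 were called, beside 4 false calls over 3 simulated sets. Each set had 200 changed genes, drawn above a minimum level, while 1934 genes were called in the data. These shares therefore show that the fit runs as intended and do not give the recovery in the real contrast. Replicates were compared by a chi-square statistic of their counts, which was between 1.16 and 1.65 per degree of freedom. No library was thus a copy of the counts of another. The statistic cannot tell separate samples from repeat libraries of the same RNA.

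The gene lists and the rules for naming genes were chosen with earlier results of these data known. Named were up to 2 called members with the smallest p per list and direction, the 8 highest and 8 lowest called genes outside the lists with at least 20 CPM in HUWE1-CS or HUWE1-P cells, HUWE1 and the genes the study turns on, and families of symbols with at least 15 genes. Other genes in the text were chosen as members of the lists after their values were seen. Some genes that the rule selects are not reported here. Lists are described by counts and medians beside those of all genes. Positions are from the GRCh37 annotation, matched for 11049 genes, as were transcript lengths, and start windows from RefSeq GRCh38.p14, matched for 9041 genes, with the transcribed strand searched for the tract. The share of genes with a window was under 80% over all genes and 80.7% for ribosomal proteins. Ribosomal protein genes have many processed pseudogenes, so that their counts depend on how shared reads were assigned. Alternatives were DESeq2 1.42.0, limma-voom (limma 3.58.1), other edgeR estimators, size factors and thresholds, a filter of 10 counts, removal of a trend with transcript length, the replicate number as a block and leaving out each library.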

Additional observations from a re-analysis of the deposited data

How the results depend on the processing

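With other settings, the number of genes called was 1088 with DESeq2 (562 higher, 526 lower), 2999 at a false discovery rate of at most 0.05 (1451 higher, 1548 lower) and 275 with a log2 fold change of at least 1 as well (83 higher, 192 lower), against 1934 (960 and 974). It was 1896 (1018 and 878) with the transcript length trend removed and 841 higher against 1102 lower with total counts as library sizes. With 1 library left out, it lay between 1466 and 2018, with 717 to 1013 higher and 723 to 1021 lower. What samples of the same replicate number share is not given in the sources used here. Deviations of same-numbered HUWE1-P and HUWE1-CS libraries correlated at 0.01, 0.08 and 0.067, and those of other pairs at -0.08 to 0.02. HUWE1-CS replicate 1 correlated best with HUWE1-P replicate 3. For HUWE1-CS and HUWE1-WT libraries the values were 0.081, 0.093 and -0.027, and -0.109 to 0.038 for other pairs. For HUWE1-P and HUWE1-WT libraries they were -0.027, -0.008 and 0.025, and -0.023 to 0.029. With the replicate block 2021 genes were called (1000 higher, 1021 lower), and 1911 with the length trend removed as well (1032 and 879). Of 501 called genes that are named or in a list, 175 lost the call with at least 1 library left out, and 0 changed sign under any of the 23 settings. Of 182 called and named genes, 145 were called under every setting other than the thresholds, and DESeq2 did not call 28. Of 2438 counts of list members called higher or lower under the settings, 356 moved by over 1.5 times or from or to 0. With DESeq2, 0 autophagy genes were called higher and 2 lower (4 and 4 in edgeR), 2 and 0 mitochondrial ribosomal proteins (8 and 1), 3 and 1 cullin-RING ligase genes (7 and 4), 1 and 4 ZNF genes (7 and 11), 3 and 3 ATF4 and amino acid response genes (7 and 4), 3 and 1 damage signalling and break repair genes (2 and 6), 1 and 8 matrix genes (2 and 13) and 10 and 1 epithelial junction genes (14 and 3). Counts in at least 1 direction moved by over 1.5 times with DESeq2 in 29 of 53 lists. Mediator subunits, of which 8 of 33 had an unadjusted p under 0.05, had 0 to 2 lower calls under the settings. With at least 10 counts in every library no endothelial marker was left. The depth of 1610984 to 2060349 reads limits low genes, such as NECTIN4, ZNF440 and PDE4D. The cause of these changes was not tested.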
